A study of Mus musculus with 20 samples.

Results

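The chemokine ligand genes described here are the 10 CXC and CC chemokines Cxcl1, Cxcl2, Cxcl5, Cxcl9, Cxcl10, Cxcl14, Cxcl16, Ccl2, Ccl5 and Ccl7, picked by gene name from the 54532 gene rows of a mouse liver RNA-seq table. All 10 were among the 14059 genes tested. Livers came from STING knockout and wild-type mice 7 days after bile duct ligation or after sham surgery, and polyadenylated RNA was sequenced. The 4 groups were ligated knockout (BDL_KO), ligated wild type (BDL_Wt), sham-operated knockout (Sham_KO) and sham-operated wild type (Sham_Wt), with 5 libraries in each. The labels give no strain, age, sex or knockout allele, and nothing says that the libraries came from separate animals, so p-values measure the spread between libraries. The comparisons ask how blocking bile flow moved each ligand and whether loss of STING, an adaptor that answers cytosolic DNA with interferon and NF-kB signalling, was accompanied by other levels.

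Chemokines are small secreted proteins that direct leukocytes along a gradient through G protein-coupled receptors. The ligands that bind Cxcr2 attract neutrophils, Ccr2 ligands attract monocytes out of the bone marrow and blood, and Cxcr3 ligands, which interferons induce, attract activated T and NK cells. In cholestatic liver, hepatocytes, cholangiocytes and macrophages are all known sources of chemokines, and neutrophils and monocytes enter the tissue. Many chemokine genes sit in clusters. On GRCm38, Cxcl5 (chr5:90759360-90761624), Cxcl1 (chr5:90891241-90893115) and Cxcl2 (chr5:90903871-90905938) lie in 1 cluster on the plus strand. Cxcl9 (chr5:92321347-92328079) and Cxcl10 (chr5:92346638-92348889) lie on a second stretch of chromosome 5 on the minus strand, and Ccl2 (chr11:82035571-82037453) and Ccl7 (chr11:82045712-82047525) lie on the plus strand of chromosome 11.

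The promoters of 4 ligands are shown because NF-kB and interferon signalling are textbook inducers of these genes and the genes belong to different attractant classes. Each sequence covers the bases from 250 to 31 before the RefSeq start of transcription (RefSeq, GRCm38.p6), read 5′ to 3′ on the gene's strand. Capitals mark matches on either strand to the NF-kB consensus or to GAAANNGAA, a core of the interferon-stimulated response element that IRF factors bind. The table of promoters held 5 of the 10 genes, the fifth being Cxcl14, and Cxcl5, Cxcl16, Ccl2, Ccl5 and Ccl7 had no entry.
Cxcl1 (chr5:90890995-90891214, plus strand): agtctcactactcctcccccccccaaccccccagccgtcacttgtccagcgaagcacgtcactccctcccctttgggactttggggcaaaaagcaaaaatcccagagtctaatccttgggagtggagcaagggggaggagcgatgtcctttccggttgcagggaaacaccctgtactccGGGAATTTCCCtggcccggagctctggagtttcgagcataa
Cxcl2 (chr5:90903649-90903868, plus strand): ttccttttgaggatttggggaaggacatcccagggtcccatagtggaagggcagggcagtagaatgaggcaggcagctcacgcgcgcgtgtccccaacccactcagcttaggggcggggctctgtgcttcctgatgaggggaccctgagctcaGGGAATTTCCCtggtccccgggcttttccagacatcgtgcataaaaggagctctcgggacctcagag
Cxcl9 (chr5:92328110-92328329, minus strand): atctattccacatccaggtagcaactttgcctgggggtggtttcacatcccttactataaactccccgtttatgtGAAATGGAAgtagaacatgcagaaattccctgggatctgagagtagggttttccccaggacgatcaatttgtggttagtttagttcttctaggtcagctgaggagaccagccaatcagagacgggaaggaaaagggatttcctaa
Cxcl10 (chr5:92348920-92349139, minus strand): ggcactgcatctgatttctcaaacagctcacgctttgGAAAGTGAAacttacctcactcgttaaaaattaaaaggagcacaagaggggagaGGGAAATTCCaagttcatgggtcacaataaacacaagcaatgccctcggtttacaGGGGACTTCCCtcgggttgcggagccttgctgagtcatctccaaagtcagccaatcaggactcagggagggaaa

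Cxcl1 and Cxcl2 both carried GGGAATTTCC, a match to the NF-kB consensus, at 71 to 62 and at 97 to 88 bases before the start. In both, a match on the other strand overlapped it, shifted by 1 base. Cxcl10 held NF-kB matches at 159 to 150 bases and, overlapping each other, at 104 to 95 and at 103 to 94 bases, the last on both strands. It also held the IRF core at 213 to 205 bases, Cxcl9 held the core at 175 to 167 bases and Cxcl14 at 172 to 164 bases. The NF-kB consensus was thus in 3 of the 5 windows and the IRF core in 3 of the 5, with Cxcl10 holding both. Over the 32851 promoter windows of the same length, 6.34% held the NF-kB consensus and 6.29% the IRF core. The patterns were picked with these genes in mind and after an earlier pair of patterns had been searched in the same windows. Which genes match depends on the pattern, so the matches are a description of the letters.

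The deposited unit is FPKM, fragments scaled to gene length and to a factor per library, which allows levels of different genes to be set side by side. That factor was not the total of assigned fragments. A single fragment per kilobase stood for 0.0734 FPKM in BDL_KO_2248, with 18.3 M assigned fragments. In BDL_Wt_2236, with 18.6 M, it stood for 0.0467 FPKM. Depth was 14.95 to 20.9 M assigned fragments per library. Summed over 7 hepatocyte markers, FPKM was at least 21540 in every library. Tmem173, which encodes STING, stood at 0.638 to 2.57 FPKM in BDL_KO, against 2.60 to 4.605 FPKM in BDL_Wt, and at 0.588 to 1.06 FPKM in Sham_KO, against 0.843 to 2.34 FPKM in Sham_Wt. The knockouts were lower on average but not at 0, and the labels do not say which part of the gene was deleted. Libraries BDL_KO_2248 and BDL_KO_2359 stood apart from the other 3 of their group. They held 63.0 and 83.0 summed FPKM of 7 cholangiocyte markers, against 332 to 561 FPKM. Differences that involve BDL_KO are therefore also given without these libraries, though not for every ligand and comparison. The summed FPKM of the Y-linked genes Ddx3y, Uty, Kdm5d and Eif2s3y was above that of Xist in 2 of 5, 3 of 5, 3 of 5 and 2 of 5 libraries of BDL_KO, BDL_Wt, Sham_KO and Sham_Wt.

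Ligation raised the neutrophil attractants, Ccl2 and Cxcl14 in both genotypes. With all libraries, Ccl7, Cxcl10 and Cxcl16 passed the test in wild type only, and no change of Cxcl9 or Ccl5 passed it in either genotype. Passing in 1 genotype alone does not show that the responses differed, and with all libraries no test of that difference passed for any ligand. The wild-type calls of Ccl7 and Cxcl10 were lost when some single libraries were left out. The test was limma on log2(FPKM + 0.5), with Benjamini-Hochberg adjustment over all 14059 genes and a threshold of 0.05. All 4 groups were in 1 fit and shared 1 estimate of the spread per gene. Each SE therefore rests on all 20 libraries and does not describe the spread of the groups compared alone. In the knockout, 5 of 10 ligands rose after ligation, where 12.3% of all genes tested rose, with a median difference of 0.78 on the log2 scale over the ligands and -0.01 over all genes. These 5 were Cxcl1, Cxcl2, Cxcl5, Ccl2 and Cxcl14, and all of them but Ccl2 had groups that did not overlap, as in 5.85% of all genes. Without libraries BDL_KO_2248 and BDL_KO_2359, Cxcl16 joined them, and with only the knockout groups in the fit Cxcl2 and Ccl2 left, which made 6 of 10, where 19.0% of all genes tested rose, and 3 of 10, where 6.03% rose. In wild type, 8 of 10 ligands rose, where 18.1% of all genes tested rose, with a median difference of 1.8 over the ligands and -0.02 over all genes. In 6 of 10 ligands every BDL_Wt library was above every Sham_Wt library, a separation upward that 16.6% of all genes showed.

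Between the ligated groups, the monocyte attractants Ccl2 and Ccl7, the T cell attractant Cxcl10 and the neutrophil attractant Cxcl2 were lower in the knockout, 4 of 10 ligands where 5.37% of all genes tested were lower. The median difference was -1.03 over the ligands and 0.01 over all genes. In none of the 10 did the BDL_KO and BDL_Wt values separate completely, while 3.33% of all genes separated downward. With only these 2 groups in the fit 0 of 10 ligands passed the threshold, where 1.61% of all genes tested were lower, and without BDL_KO_2248 and BDL_KO_2359 only Cxcl10 did, where 3.38% were lower. Between the sham groups limma called 0 of 10 ligands, where it called 2.97% of all genes tested and 1.66% as lower. At an unadjusted p under 0.05 there were 4, where 17.4% of all genes tested were, and voom on recovered fragments called 0. With only the sham groups in the fit Ccl2 and Cxcl10 were lower, where 3.46% of all genes tested were. No test of the difference between the 2 ligation responses passed the threshold either, where 0.377% of all genes tested passed in either direction, and voom called 0. At an unadjusted p under 0.05 there were 3 ligands, where 12.6% of all genes tested were. These 3 were Cxcl2 at -1.05 (limma adjusted p = 0.255), Cxcl14 at -1.03 (limma adjusted p = 0.255) and Cxcl16 at -0.99 (limma adjusted p = 0.337), each with a smaller fitted rise in the knockout. Without BDL_KO_2248 and BDL_KO_2359 the values were -0.70 for Cxcl2 (limma adjusted p = 0.423), -1.13 for Cxcl14 (limma adjusted p = 0.216) and -0.33 for Cxcl16 (limma adjusted p = 0.516). The differences are on the log2(FPKM + 0.5) scale, which understates the change of low genes such as Cxcl2, Cxcl5 and Ccl7.

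**Figure D1:**
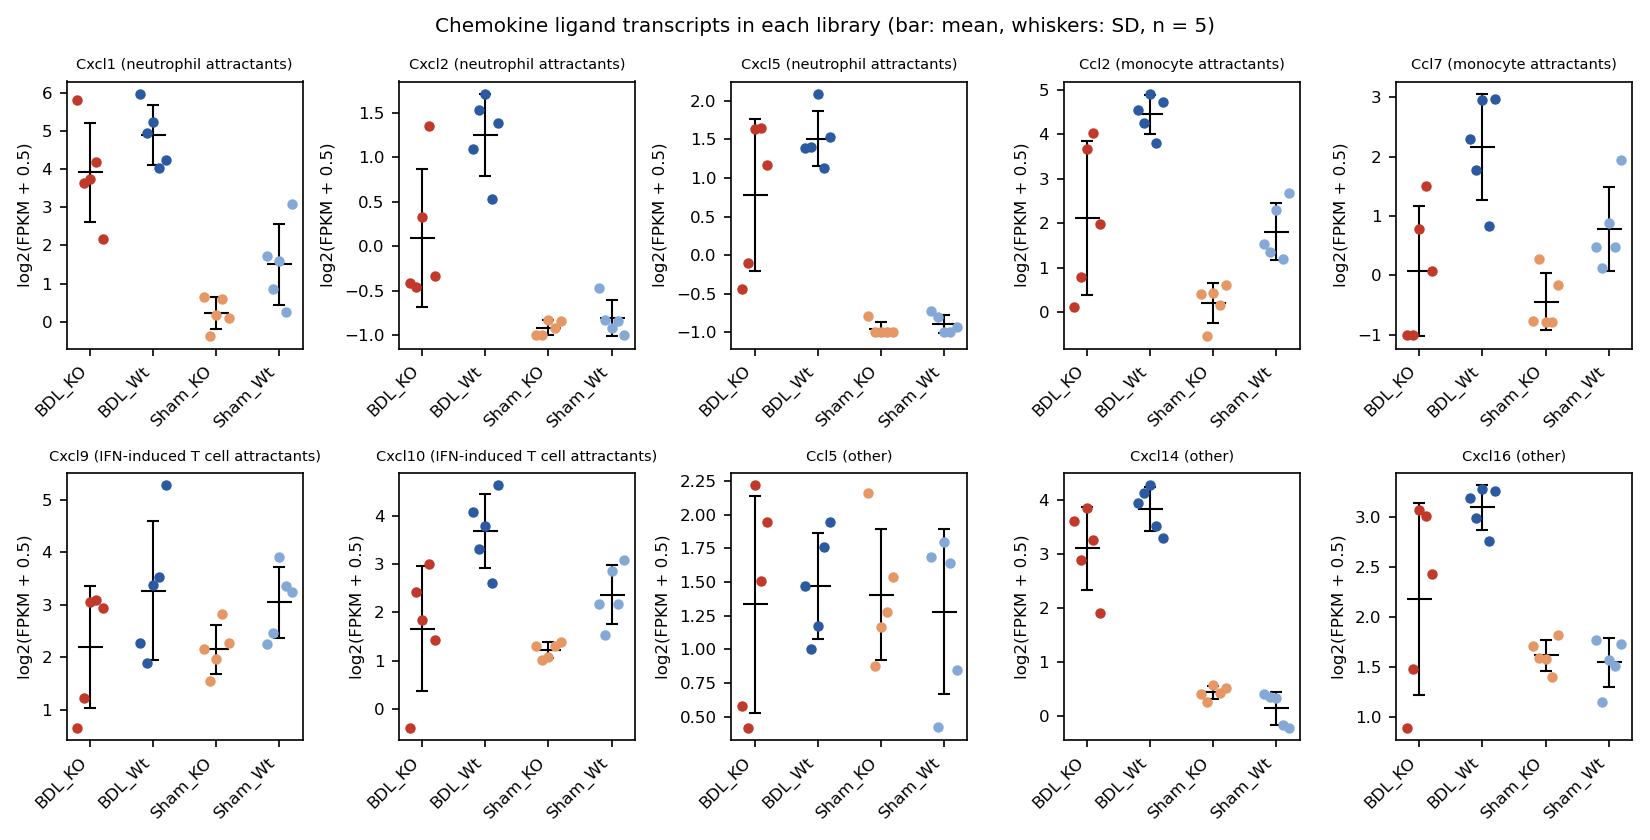
Each panel plots the log2(FPKM + 0.5) of a chemokine ligand in the 5 libraries of each group (points), with the mean (bar) and SD (whiskers). Cxcl1, Cxcl2, Cxcl5 and Cxcl14 are above every sham library of the same genotype in every ligated library, while the ranges of Ccl5 overlap in all 4 groups.

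Cxcl1 encodes the main CXC ligand by which stressed parenchymal cells call neutrophils through Cxcr2. Library values are given in rising order of library number, which is BDL_KO_2248, BDL_KO_2359, BDL_KO_2365, BDL_KO_2370 and BDL_KO_2371 for the ligated knockout and BDL_Wt_2233, BDL_Wt_2235, BDL_Wt_2236, BDL_Wt_2237 and BDL_Wt_2240 for the ligated wild type. For sham livers the order is Sham_KO_2347, Sham_KO_2349, Sham_KO_2350, Sham_KO_2352 and Sham_KO_2353, and then Sham_Wt_2223, Sham_Wt_2224, Sham_Wt_2227, Sham_Wt_2228 and Sham_Wt_2229. After ligation, Cxcl1 stood at 56.0, 12.0, 13.0, 17.8 and 4.01 FPKM in BDL_KO, against 62.8, 30.5, 37.6, 15.9 and 18.3 FPKM in BDL_Wt. After sham surgery it stood at 1.08, 0.265, 0.619, 1.02 and 0.564 FPKM in Sham_KO, against 2.79, 1.32, 2.51, 0.701 and 8.04 FPKM in Sham_Wt. Every ligated library was above every sham library of its genotype, and in the ligated knockout the highest value was 14.0 times the lowest. Cxcl1 rose with ligation by 3.69 ± 0.56 (SE) on the log2 scale in the knockout (limma adjusted p = 0.000154) and by 3.39 ± 0.56 in wild type (limma adjusted p = 0.000136). Between BDL_KO and BDL_Wt the groups overlapped and the difference was -0.98 ± 0.56 (limma adjusted p = 0.298), and -1.52 without BDL_KO_2248 and BDL_KO_2359 (limma adjusted p = 0.128). Library BDL_KO_2248, which held the lowest value of its group for 6 of the 10 ligands, held the highest Cxcl1.

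Cxcl2 encodes a second Cxcr2 ligand, made mainly by activated macrophages and neutrophils. Its FPKM after ligation was 0.249, 0.226, 0.755, 2.04 and 0.294 in BDL_KO, against 1.62, 2.38, 2.78, 0.944 and 2.10 in BDL_Wt. Sham livers held 0, 0, 0.0624, 0.0307 and 0.0602 FPKM in Sham_KO, against 0.221, 0.0647, 0.0288, 0.0577 and 0 FPKM in Sham_Wt, which rests on 5 fragments summed over the Sham_KO group and 12 over the Sham_Wt group. Library BDL_KO_2370 was inside the wild-type range and the other 4 ligated knockout libraries were below it. Cxcl2 rose with ligation by 1.01 ± 0.28 in the knockout (limma adjusted p = 0.0138) and by 2.06 ± 0.28 in wild type (limma adjusted p = 2.36e-05). It was lower in BDL_KO than in BDL_Wt, with a difference of -1.16 ± 0.28 (limma adjusted p = 0.0153). Without BDL_KO_2248 and BDL_KO_2359 that difference was -0.80 and missed the threshold (limma adjusted p = 0.114). It also missed the threshold when only BDL_KO_2359 or only BDL_Wt_2236 was left out.

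Cxcl5 encodes a further Cxcr2 ligand, known best from epithelial cells. Ligated livers held 0.236, 0.430, 2.60, 2.62 and 1.75 FPKM in BDL_KO, against 2.12, 2.14, 3.76, 1.69 and 2.39 FPKM in BDL_Wt. In Sham_KO the gene was listed at 0.0773 FPKM in 1 library, which is 2 fragments, and at 0 in the other 4, against 0.105, 0.0719, 0, 0 and 0.0268 FPKM in Sham_Wt. The gene was thus at or near 0 in sham livers of both genotypes and above them in all 10 ligated livers. It rose by 1.74 ± 0.32 in the knockout (limma adjusted p = 0.000754) and by 2.40 ± 0.32 in wild type (limma adjusted p = 1.73e-05). Only BDL_KO_2248 and BDL_KO_2359 were below the wild-type range, and the difference between the ligated groups was -0.73 ± 0.32 (limma adjusted p = 0.160). Without those 2 libraries it was -0.0268 (limma adjusted p = 0.953), and the rise in the knockout was 2.44 (limma adjusted p = 9.4e-08). The difference between the ligated groups passed the threshold when BDL_KO_2370 alone was left out (limma adjusted p = 0.0493).

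Summed FPKM of 10 neutrophil markers, among them S100a8 and Csf3r, ran from 10.7 to 18.8 in BDL_KO, 16.2 to 48.8 in BDL_Wt, 2.91 to 3.84 in Sham_KO and 2.85 to 13.8 in Sham_Wt. Of the 4 markers tested, 3 rose with ligation in the knockout and 4 in wild type, where 12.3% and 18.1% of all genes tested rose. Retnlg and Csf3r were lower in BDL_KO than in BDL_Wt, with differences of -1.17 ± 0.32 (limma adjusted p = 0.0297) and -0.74 ± 0.21 (limma adjusted p = 0.0319). Of all genes tested, 5.37% were lower. None of the 4 was lower in BDL_KO without BDL_KO_2248 and BDL_KO_2359, with -1.18 for Retnlg (limma adjusted p = 0.0836) and -0.40 for Csf3r (limma adjusted p = 0.229). In that fit 3.38% of all genes tested were lower. At most 2 of the 10 were at 0 in a ligated library and at most 5 in a sham library, and the defining marker Ly6g reached no more than 0.0674 FPKM in any library. The shared receptor Cxcr2 did not enter the test, with 0.109 to 0.485 FPKM in BDL_KO, against 0.285 to 1.11 FPKM in BDL_Wt, and with 0 to 0.0932 FPKM in Sham_KO, against 0.0220 to 0.313 FPKM in Sham_Wt. In bulk liver, fewer cells of a type and less RNA per cell cannot be told apart, and the part of these cells in the ligand values was not tested.

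Ccl2 encodes the principal Ccr2 ligand and is made by macrophages, stellate cells and stressed epithelium. After ligation it stood at 0.581, 1.23, 12.4, 15.8 and 3.45 FPKM in BDL_KO, against 23.1, 18.5, 29.7, 13.5 and 25.9 FPKM in BDL_Wt. The sham values were 0.823, 0.187, 0.850, 0.614 and 1.04 FPKM in Sham_KO, against 2.41, 2.06, 4.40, 1.78 and 5.88 FPKM in Sham_Wt. BDL_KO_2248 and BDL_KO_2359 were in or just above the sham range of their genotype, BDL_KO_2370 was inside the wild-type range after ligation, and every Sham_KO library was below every Sham_Wt library. Ccl2 rose with ligation by 1.90 ± 0.57 in the knockout (limma adjusted p = 0.0201) and by 2.64 ± 0.57 in wild type (limma adjusted p = 0.00137). The rise in the knockout was 3.02 without BDL_KO_2248 and BDL_KO_2359 (limma adjusted p = 6.11e-05), but the call was lost with only the knockout groups in the fit (limma adjusted p = 0.0948), under voom (limma adjusted p = 0.0741) and without any single library of BDL_KO_2365, BDL_KO_2370 and Sham_KO_2349. Between the ligated groups Ccl2 was lower in the knockout, with a difference of -2.33 ± 0.57 (limma adjusted p = 0.0155). Without BDL_KO_2248 and BDL_KO_2359 the difference was -1.22 and missed the threshold (limma adjusted p = 0.101). Leaving out BDL_KO_2359 alone also lost that call. Between the sham groups the difference was -1.60 ± 0.57 (limma adjusted p = 0.142), and with only the sham groups in the fit it passed (limma adjusted p = 0.0172).

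Ccl7 encodes another Ccr2 ligand, which also binds Ccr1. It was listed at 0, 0, 1.21, 2.32 and 0.552 FPKM in BDL_KO, against 4.41, 2.90, 7.23, 1.29 and 7.37 FPKM in BDL_Wt. Sham livers held 0.0899, 0.7095, 0.0805, 0.0793 and 0.388 FPKM in Sham_KO, against 0.897, 0.585, 1.34, 0.894 and 3.37 FPKM in Sham_Wt. These levels rest on 60 fragments in the BDL_KO group, 355 in BDL_Wt, 16 in Sham_KO and 102 in Sham_Wt. Both knockout groups were mostly below their wild-type partners, with the 2 zeros in BDL_KO_2248 and BDL_KO_2359 and with BDL_KO_2370 again the highest of its group. Ccl7 differed by 0.52 ± 0.49 between BDL_KO and Sham_KO (limma adjusted p = 0.471) and rose by 1.38 ± 0.49 in wild type (limma adjusted p = 0.0324). Without BDL_KO_2248 and BDL_KO_2359 the difference between BDL_KO and Sham_KO was 1.23 (limma adjusted p = 0.0565). The wild-type rise missed the threshold with a pseudocount of 0.1, with no filter, under voom, and without any single library of BDL_Wt_2233, BDL_Wt_2236, BDL_Wt_2240, Sham_Wt_2223, Sham_Wt_2224 and Sham_Wt_2228. Between the ligated groups Ccl7 was lower in the knockout, with a difference of -2.10 ± 0.49 (limma adjusted p = 0.0118), and without BDL_KO_2248 and BDL_KO_2359 the difference was -1.38 and missed the threshold (limma adjusted p = 0.1004).

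Summed FPKM of 10 monocyte and recruited macrophage markers ran from 40.0 to 256 in BDL_KO, 198 to 262 in BDL_Wt, 53.3 to 104 in Sham_KO and 38.3 to 85.4 in Sham_Wt. The sums of BDL_KO_2248 and BDL_KO_2359 were 40.0 and 89.4 FPKM and those of the other 3 ligated knockout libraries 164 to 256 FPKM, so these libraries were low in both the markers and the attractants of these cells. None of the 10 markers was at 0 in a ligated library. Of these markers, 7 rose with ligation in the knockout and 10 in wild type, and 4 were lower in BDL_KO than in BDL_Wt. The shares of all genes tested were 12.3%, 18.1% and 5.37%. With BDL_KO_2248 and BDL_KO_2359 left out, 9 rose in the knockout and 3, among them Ccr2, were lower in BDL_KO, where 19.0% and 3.38% of all genes tested did so. The receptor Ccr2, itself among the markers, averaged 1.59 ± 1.21 FPKM in BDL_KO, 4.06 ± 1.03 in BDL_Wt, 0.195 ± 0.083 in Sham_KO and 0.333 ± 0.086 in Sham_Wt (SD, n = 5 each). Ccr2 was lower in BDL_KO than in BDL_Wt, with a difference of -1.33 ± 0.31 (limma adjusted p = 0.0118). The part of monocyte numbers in the Ccl2 and Ccl7 values was not tested.

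**Figure D2:**
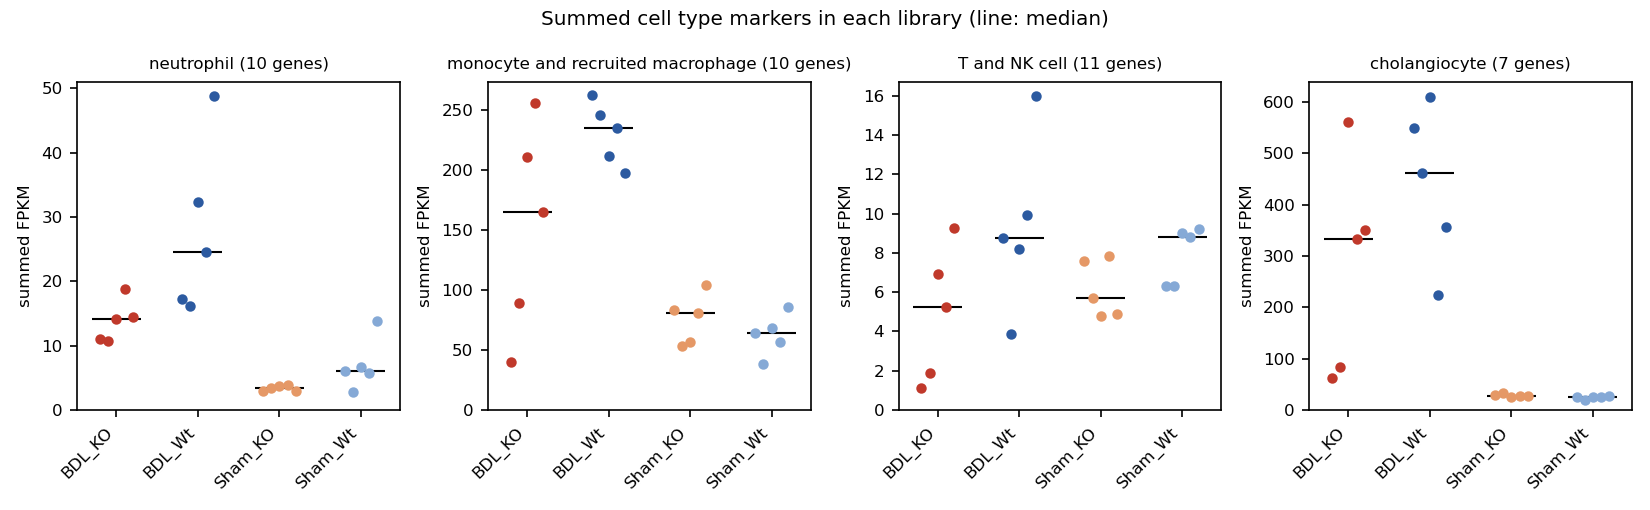
Each panel plots the FPKM summed over a marker list in the 5 libraries of each group (points), with the group median (line). BDL_KO_2248 and BDL_KO_2359 are the 2 lowest ligated knockout points for monocytes, at 40.0 and 89.4 FPKM, and for cholangiocytes, at 63.0 and 83.0 FPKM.

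Cxcl10, a Cxcr3 ligand that answers type I and type II interferon, stood after ligation at 0.261, 4.89, 3.09, 7.54 and 2.18 FPKM in BDL_KO, against 16.4, 9.52, 13.3, 5.63 and 24.4 FPKM in BDL_Wt. After sham surgery it stood at 1.98, 1.51, 1.60, 1.97 and 2.128 FPKM in Sham_KO, against 4.03, 2.41, 6.80, 4.00 and 7.94 FPKM in Sham_Wt. Every Sham_KO library was below every Sham_Wt library, and 4 of 5 BDL_KO libraries were below every BDL_Wt library. Ccl2 and Cxcl10 were the 2 of 10 ligands whose sham groups separated downward, as 4.58% of all genes tested did. Cxcl10 differed by 0.44 ± 0.48 between BDL_KO and Sham_KO (limma adjusted p = 0.533) and rose by 1.32 ± 0.48 in wild type (limma adjusted p = 0.0374), a call lost with a pseudocount of 0.1, with no filter and without any single library of the same 6 as for Ccl7. Between the ligated groups it was lower in the knockout, with a difference of -2.03 ± 0.48 (limma adjusted p = 0.0130), and of -1.60 without BDL_KO_2248 and BDL_KO_2359 (limma adjusted p = 0.0310). Without those 2 libraries the difference between BDL_KO and Sham_KO was 0.87 (limma adjusted p = 0.112). The sham difference was -1.15 ± 0.48 (limma adjusted p = 0.219), and it passed with only the sham groups in the fit (limma adjusted p = 0.0271).

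Cxcl9 shares the Cxcr3 receptor and is induced mainly by interferon gamma. Its values after ligation were 1.07, 1.84, 7.77, 8.03 and 7.15 FPKM in BDL_KO, against 4.29, 3.21, 9.82, 11.1 and 38.3 FPKM in BDL_Wt. Sham levels ran from 2.40 to 6.59 FPKM in Sham_KO, against 4.29 to 14.5 FPKM in Sham_Wt. All 4 groups overlapped, and the highest value of all was in BDL_Wt_2240. Cxcl9 differed by 0.04 between BDL_KO and Sham_KO (limma adjusted p = 0.972), by 0.22 between BDL_Wt and Sham_Wt (limma adjusted p = 0.799) and by -1.08 ± 0.57 between BDL_KO and BDL_Wt (limma adjusted p = 0.255). Without BDL_KO_2248 and BDL_KO_2359 the last of these was -0.24 (limma adjusted p = 0.854). The difference between BDL_KO and Sham_KO was then 0.87 (limma adjusted p = 0.241). Of these 2 Cxcr3 ligands, only Cxcl10 passed the test for ligation in wild type and for genotype after ligation. Whether the genes differ from each other in response was not tested.

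Markers of the cells that Cxcr3 ligands attract were low in all groups. Summed FPKM of 11 T and NK cell markers ran from 1.13 to 9.29 in BDL_KO, 3.85 to 16.0 in BDL_Wt, 4.78 to 7.86 in Sham_KO and 6.31 to 9.21 in Sham_Wt. At most 2 of the 11 were at 0 in a BDL_KO library, and none in BDL_Wt. Only 4 of the 11 entered the test, none rose or fell with ligation in either genotype, and 1, the cytotoxic granule gene Gzmb, was lower in BDL_KO than in BDL_Wt, with a difference of -1.35 ± 0.36 (limma adjusted p = 0.0262), and of -0.69 without BDL_KO_2248 and BDL_KO_2359 (limma adjusted p = 0.190). Of all genes tested, 12.3% rose in the knockout, 18.1% rose in wild type and 5.37% were lower in BDL_KO than in BDL_Wt. Of the 3534 genes called for ligation in the knockout and the 5011 in wild type, 48.8% and 50.8% were higher and the rest lower. In libraries BDL_KO_2248 and BDL_KO_2359 the marker sum was 1.13 and 1.86 FPKM, and in the other 3 ligated knockout libraries 5.22 to 9.29 FPKM. The receptor Cxcr3 averaged 0.264 ± 0.140 FPKM in BDL_KO, 0.434 ± 0.095 in BDL_Wt, 0.308 ± 0.245 in Sham_KO and 0.497 ± 0.079 in Sham_Wt (SD, n = 5 each). The interferon genes themselves were at or near 0, with Ifng no higher than 0.128 FPKM and Ifnb1 no higher than 0.289 FPKM in any library.

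Of 12 interferon pathway genes 10 were tested, 1 rose and 1 fell with ligation in the knockout and 6 rose in wild type, and 7 were lower in BDL_KO than in BDL_Wt with none higher. Of all genes tested, 12.3% rose in the knockout, 18.1% rose in wild type and 5.37% were lower in BDL_KO than in BDL_Wt. Without BDL_KO_2248 and BDL_KO_2359, 3 rose and 1 fell in the knockout and 5, among them Irf7 and Irf9, were lower in BDL_KO. In that fit 19.0% of all genes tested rose and 18.4% fell in the knockout, and 3.38% were lower in BDL_KO. Irf7, a transcription factor of interferon induction, differed by -2.79 ± 0.32 between BDL_KO and BDL_Wt with all libraries (limma adjusted p = 2.22e-05). Irf9, a transcription factor of the type I interferon response, differed by -1.41 ± 0.11 (limma adjusted p = 1.18e-06). After sham surgery 2 of the 10 were lower in the knockout, where 1.66% of all genes tested were, with differences of -2.71 ± 0.32 for Irf7 (limma adjusted p = 0.000271) and -0.59 ± 0.11 for Irf9 (limma adjusted p = 0.00697). Of 11 NF-kB inducers and feedback genes 10 were tested, 5 rose with ligation in the knockout and 8 in wild type, and 8 were lower in BDL_KO than in BDL_Wt. With those 2 libraries left out, 8 rose in the knockout and 2, Tnfaip3 and Birc3, were lower in BDL_KO. The feedback gene Tnfaip3, a brake on NF-kB signalling, differed by -1.62 ± 0.26 (limma adjusted p = 0.000744), and its ligation responses differed between the genotypes by -1.78 ± 0.37 (limma adjusted p = 0.0397).

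**Figure D3:**
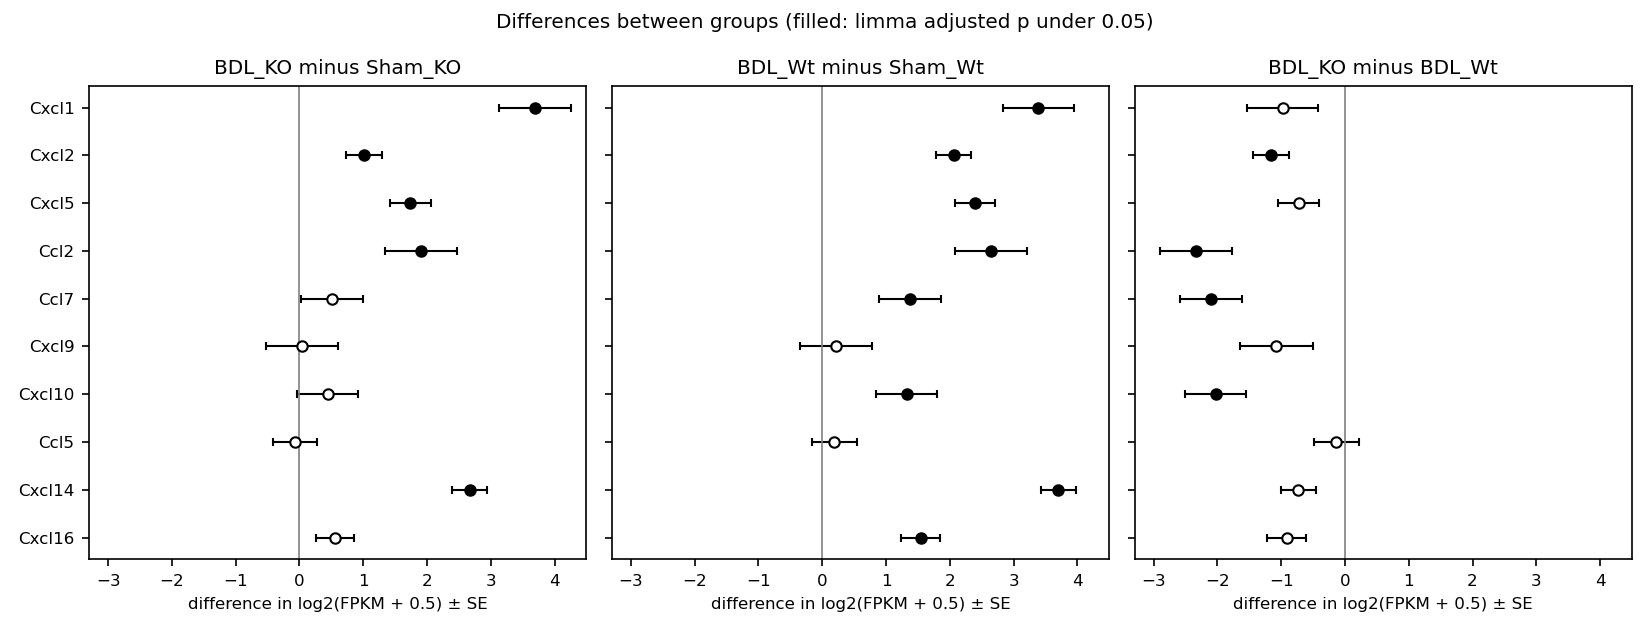
Points are the differences in log2(FPKM + 0.5) between groups for each ligand, with the SE as bars, and filled points have a limma adjusted p under 0.05. Ligation raised 5 ligands in the knockout and 8 in wild type, and Cxcl2, Ccl2, Ccl7 and Cxcl10 are the filled points below 0 in the comparison of BDL_KO with BDL_Wt.

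Cxcl14, a ligand produced by epithelium with activity towards monocytes and NK cells, stood after ligation at 11.8, 6.90, 13.9, 9.08 and 3.24 FPKM in BDL_KO, against 14.8, 17.1, 18.9, 11.0 and 9.31 FPKM in BDL_Wt. Sham values ran from 0.700 to 0.989 FPKM in Sham_KO, against 0.355 to 0.822 FPKM in Sham_Wt. Every ligated library was above every sham library, and BDL_KO_2248 and BDL_KO_2359, low for most ligands, were not the lowest here. Cxcl14 rose by 2.67 ± 0.27 in the knockout (limma adjusted p = 3.37e-06) and by 3.70 ± 0.27 in wild type (limma adjusted p = 6.67e-08). The difference between BDL_KO and BDL_Wt was -0.73 ± 0.27 (limma adjusted p = 0.102), and it passed the threshold when libraries were rescaled to TPM or to total fragments, both of which also shifted the median of all genes (to -0.24 and -0.16), and when BDL_KO_2365 was left out. It was -0.83 without BDL_KO_2248 and BDL_KO_2359 (limma adjusted p = 0.135).

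Cxcl16 encodes a ligand made as a membrane protein and shed by Adam10, with Cxcr6 as receptor. After ligation its FPKM was 1.36, 2.30, 7.88, 7.52 and 4.88 in BDL_KO, against 8.57, 7.41, 9.21, 6.24 and 9.08 in BDL_Wt. Sham levels ran from 2.15 to 3.03 FPKM in Sham_KO, against 1.73 to 2.92 FPKM in Sham_Wt. All 5 BDL_Wt libraries were above all Sham_Wt libraries, while BDL_KO_2248 and BDL_KO_2359 were below most Sham_KO libraries and the other 3 ligated knockout libraries were above them. Cxcl16 rose by 1.54 ± 0.30 in wild type (limma adjusted p = 0.000635). In the knockout the difference was 0.55 ± 0.30 (limma adjusted p = 0.189), and without those 2 libraries it was 1.21 and passed (limma adjusted p = 3.79e-05). Between the ligated groups it was -0.92 ± 0.30 (limma adjusted p = 0.0646), and -0.26 without those 2 libraries (limma adjusted p = 0.396). The difference between the ligated groups passed the threshold when either BDL_KO_2365 or BDL_KO_2370 alone was left out. The sheddase Adam10 rose in both genotypes, by 0.61 ± 0.12 in the knockout (limma adjusted p = 0.00118) and by 0.85 ± 0.12 in wild type (limma adjusted p = 2.55e-05), and Cxcr6 reached no more than 0.783 FPKM in any library.

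Ccl5, which binds Ccr1 and is made largely by T and NK cells, passed no test. It stood after ligation at 0.994, 0.834, 4.15, 2.34 and 3.34 FPKM in BDL_KO, against 2.27, 1.5, 1.75, 2.88 and 3.35 FPKM in BDL_Wt. The group means were 2.33 ± 1.45 FPKM in BDL_KO, 2.35 ± 0.77 in BDL_Wt, 2.27 ± 1.02 in Sham_KO and 2.09 ± 0.96 in Sham_Wt (SD, n = 5 each), and all groups overlapped. The difference between BDL_KO and BDL_Wt was -0.14 ± 0.35 (limma adjusted p = 0.857), which does not show that the levels were equal, and 0.42 without BDL_KO_2248 and BDL_KO_2359 (limma adjusted p = 0.505). The receptor Ccr1 rose with ligation in both genotypes, by 1.22 ± 0.18 in the knockout (limma adjusted p = 0.000158) and by 2.16 ± 0.18 in wild type (limma adjusted p = 2.65e-07).

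Ordered by mean level per gene length in the ligated knockout, the ligands were Cxcl1 at 20.6 FPKM, Cxcl14 at 8.98, Ccl2 at 6.68, Cxcl9 at 5.17, Cxcl16 at 4.79, Cxcl10 at 3.59, Ccl5 at 2.33, Cxcl5 at 1.53, Ccl7 at 0.817 and Cxcl2 at 0.713 FPKM. In the ligated wild type they ran from Cxcl1 at 33.0 FPKM through Ccl2 at 22.2, Cxcl14 at 14.2, Cxcl10 at 13.9, Cxcl9 at 13.3, Cxcl16 at 8.10, Ccl7 at 4.64, Cxcl5 at 2.42 and Ccl5 at 2.35 to Cxcl2 at 1.97 FPKM. Neighbours in either order had overlapping ranges over the 5 libraries. Cxcl1 led in both groups, and Cxcl2 was last in both.

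The 5 ligated knockout livers spanned a wider range of log2 values than the ligated wild-type livers for every ligand but Cxcl9. BDL_KO_2248 was among the 2 lowest of its group for 8 of 10 ligands and BDL_KO_2359 for 9 of 10, while BDL_KO_2370 was the highest for 6. Summed hepatocyte markers were 53934 and 45785 FPKM in BDL_KO_2248 and BDL_KO_2359 and 30200 to 34361 FPKM in the other 3. In the ligated wild type, BDL_Wt_2237 was the lowest for 7 of 10 ligands. Ccl2 spanned 27.2 times from lowest to highest in BDL_KO, against 2.20 times in BDL_Wt, and Cxcl16 spanned 5.79 times, against 1.48 times. Cxcl1 and Cxcl14 did not follow this order, with BDL_KO_2371 the lowest library for both. The cause of the spread was not tested.

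**Figure D4:**
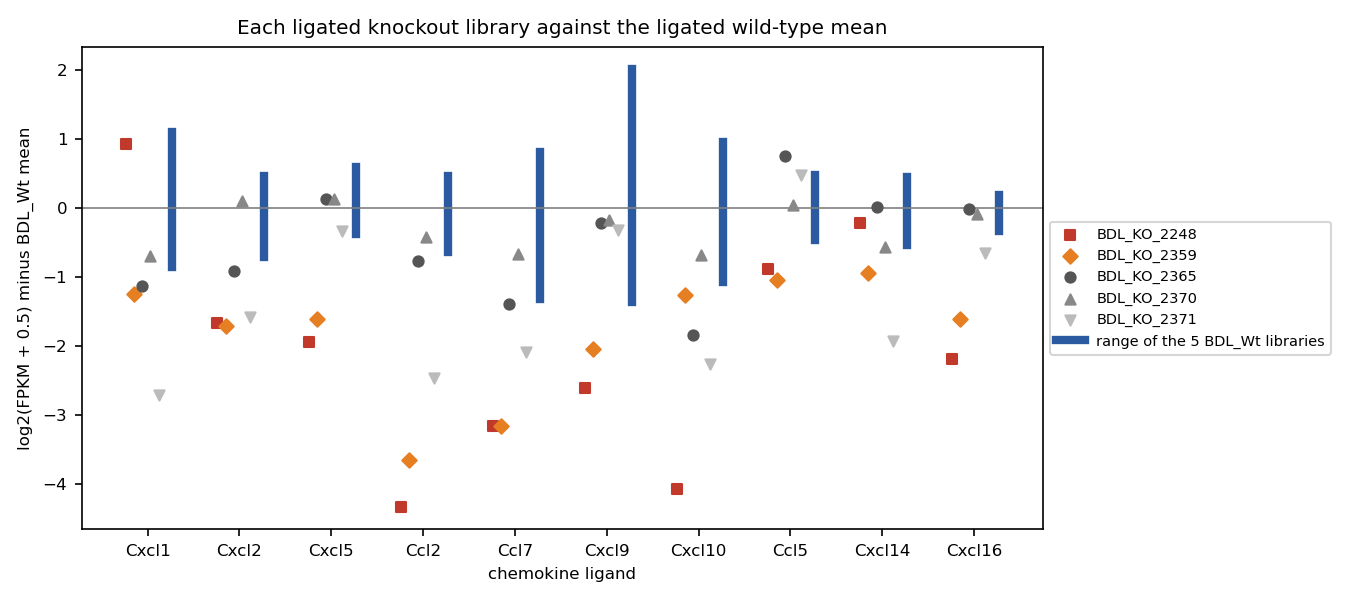
Symbols give log2(FPKM + 0.5) of each ligated knockout library minus the BDL_Wt mean, by ligand, and bars give the range of the 5 BDL_Wt libraries on the same scale. BDL_KO_2248 is below the bar for Ccl2, Ccl7 and Cxcl10 but inside it for Cxcl1, and BDL_KO_2370 is at or above the lower end of the bar for every ligand but Cxcl14.

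The remaining chemokine system was read from lists chosen by function. Of 27 other chemokine ligands 15 were tested, of which 4 rose and 3 fell with ligation in the knockout and 8 rose and 2 fell in wild type. Of all genes tested, 12.3% rose in the knockout, 18.1% rose in wild type and 5.37% were lower in BDL_KO than in BDL_Wt. Ccl6, a myeloid ligand of Ccr1, rose by 1.78 ± 0.24 in the knockout (limma adjusted p = 4.48e-05) and by 2.58 ± 0.24 in wild type (limma adjusted p = 4.10e-07). Between BDL_KO and BDL_Wt, 3 of these 15 were lower and none higher, namely the mouse Ccr2 ligand Ccl12 with a difference of -1.58 ± 0.35 (limma adjusted p = 0.00853), the macrophage inflammatory protein gene Ccl4 with -1.47 ± 0.29 (limma adjusted p = 0.00364) and Ccl6 with -0.96 ± 0.24 (limma adjusted p = 0.0164). Without BDL_KO_2248 and BDL_KO_2359, 7 of the 15 rose and 3 fell with ligation in the knockout, and 1, Ccl24, was higher and 1, Ccl4, lower in BDL_KO than in BDL_Wt. In that fit 19.0% of all genes tested rose and 18.4% fell in the knockout. Between the ligated groups 3.27% were higher and 3.38% lower in BDL_KO. The same shares apply to the receptors, proteases and anchors below. Cxcl3, a further but not the only other Cxcr2 ligand on the list, did not enter the test, with at most 0.133 FPKM. Of 23 receptors 11 were tested, 4 rose with ligation in the knockout and 6 in wild type with none falling, and Ccr2, Cxcr4, Ccr1 and Ccrl2 were lower in BDL_KO than in BDL_Wt. Without those 2 libraries 6 rose in the knockout, and between the ligated groups 2, the atypical receptors Ackr1 and Ackr2, were higher in BDL_KO and 2, Ccr1 and Ccr2, were lower. Of 8 chemokine-processing proteases and matrix anchors 7 were tested, 3 rose with ligation in the knockout, 5 rose and 1 fell in wild type, and none passed the test between BDL_KO and BDL_Wt. Without those 2 libraries 5 rose and 1 fell in the knockout, and again none passed between the ligated groups.

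The genes closest to each ligand were found as the smallest root mean square distance between log2 profiles scaled to mean 0 and SD 1 over the 20 libraries, a description in which libraries share depth, tissue makeup and the contrast of ligation. Cxcl2 lay nearest to Duox2 at 0.195 and Duoxa2 at 0.220, which encode an oxidase of epithelial surfaces and its maturation factor. Cxcl5 lay nearest to Spp1 at 0.182, the osteopontin gene of reactive cholangiocytes and macrophages, Cxcl16 to Anxa2 at 0.225 and Cxcl14 to Ccdc120 at 0.193. Ccl2 lay nearest to Actr3 at 0.246 and to the leukocyte genes Coro1a at 0.249 and Plek at 0.255, and Cxcl1 to the TNF receptor gene Tnfrsf1a at 0.221. Ccl7 lay nearest to St6gal1 at 0.277, with Ifih1, a sensor of double-stranded RNA, at 0.374. Cxcl10 had no gene nearer than Oasl1, an interferon-induced gene, at 0.437, Cxcl9 none nearer than Spn at 0.494 and Ccl5 none nearer than Tbc1d10c at 0.668. Among the ligands the closest profiles were those of Cxcl2 and Cxcl5 at 0.385, and the farthest were those of Cxcl1 and Ccl5 at 1.47.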

How the data were processed

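Liver RNA was isolated with TRIzol and prepared with a VAHTS Universal V6 kit, per the labels' protocols. The authors deposited 1 table of FPKM per gene and library. The submitters' processing notes name HISAT2 2.0.5, featureCounts 1.5.0-p3, fastp, DESeq2 1.20.0 and CASAVA 1.8, and the builds mm10 and GRCm38, with no roles. Their annotation was not given in the sources used here. Abcb4-deficient mice, named in the series design, were not analysed here.

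Groups came from the sample titles. Values were tested as log2(FPKM + 0.5) in genes that reached 0.5 FPKM in 5 or more of 20 libraries. The test was limma 3.58.1 in R 4.3.3, with 1 mean per group, trend and robust moderation, and it was tested on simulated data. Fragments per gene were recovered from the deposited FPKM and the exonic length of a GENCODE annotation of GRCm38, and all values of the 10 ligands were within 0.1 of whole fragments. Rows repeating a gene name numbered 105. Python 3.11.15, pandas 2.3.3, numpy 2.4.6 and matplotlib 3.10.9 were used.

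The ligands and lists were chosen with earlier results of these data known. Named were the ligands, their receptors, up to 4 called genes per list and comparison by size of change, and the 3 genes nearest to each ligand. Values of some listed genes are not reported here. Alternatives varied the pseudocount, filter, scaling, moderation, covariate and libraries. Voom on recovered fragments and scaling to total fragments were chosen after seeing the data.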

Additional observations from a re-analysis of the deposited data

Results flagged for a closer look

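For Cxcl5 in the sham-operated knockout, Sham_KO_2347 held 0.0773 FPKM, which is 2 fragments, and the other 4 libraries were at 0. With 4 libraries at 0 the gap takes up the whole range of the group whatever the fifth value is, so passing Dixon's critical value for 5 libraries says nothing of how far that library lies from the others. On the log2(FPKM + 0.5) scale this was the only one of 40 groups of 5 libraries to pass, 10 ligands in 4 groups, where chance gives about 1 in 20. On the FPKM scale, tried after seeing the data, 5 of the 40 passed, the others being Cxcl1 in BDL_KO (BDL_KO_2248 highest), Cxcl9 in BDL_Wt (BDL_Wt_2240 highest) and Cxcl1 and Ccl7 in Sham_Wt (Sham_Wt_2229 highest in both).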

How the results depend on the processing

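No paired analysis was possible because the groups share no library numbers. With only the 2 groups compared in the fit, ligands called numbered 3 for ligation in the knockout, 0 between BDL_KO and BDL_Wt and 2 between Sham_KO and Sham_Wt (the interaction uses all 4 groups). In these fits 12.0%, 2.01% and 5.84% of all genes tested were called. Without BDL_KO_2248 and BDL_KO_2359, ligands called numbered 1 between BDL_KO and BDL_Wt (Cxcl10, lower) and 1 between the sham groups (Ccl2, lower). In that fit 3.38% and 4.35% of all genes tested were lower. Leaving out 1 library at a time gave 4 to 6 calls for ligation in the knockout, 6 to 8 in wild type, 2 to 6 between BDL_KO and BDL_Wt (2 without BDL_KO_2359), 0 between the sham groups and 0 to 1 for the interaction (Cxcl2, without BDL_KO_2370). The shares of all genes called in these leave-out fits are not reported here, so the counts show only how far the calls move. Under TPM and total-fragment scaling the median of all genes was 0.15 and 0.04 for ligation in the knockout, 0.27 and 0.14 in wild type and -0.24 and -0.16 between BDL_KO and BDL_Wt. In the main fit these medians were -0.01, -0.02 and 0.01. Of all genes called, 48.8% were higher for ligation in the knockout, 50.8% in wild type and 39.2% between BDL_KO and BDL_Wt, against 77.0, 82.8 and 6.96% under TPM and 57.9, 71.2 and 11.4% under total fragments.

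Signs turned only in differences that had missed the threshold. For ligation in the knockout, Cxcl9 gave -0.00192 with a pseudocount of 0.1 and -0.15 with Y-linked transcripts above Xist, yes or no, as a covariate. Ccl5 gave 0.0816 under TPM, 0.00707 under total fragments and 0.49 without BDL_KO_2248 and BDL_KO_2359. Without those 2 libraries Ccl5 gave 0.42 between BDL_KO and BDL_Wt, and the interaction gave -0.24 for Cxcl1, 0.0406 for Cxcl5, 0.37 for Ccl2, 0.65 for Cxcl9 and 0.30 for Ccl5. Cxcl16 gave -0.0517 between the sham groups under TPM. Leaving out 1 library moved Cxcl9 between -0.19 and 0.42 and Ccl5 between -0.29 and 0.16 for ligation in the knockout, and Cxcl9 between -0.28 and 0.56 and Ccl5 between -0.0247 and 0.32 for ligation in wild type. It moved Ccl5 between -0.36 and 0.0924 for BDL_KO against BDL_Wt, Ccl5 between -0.0905 and 0.26 and Cxcl16 between -0.0257 and 0.13 for the sham groups, and the interaction of Cxcl1 between -0.17 and 0.74 and of Cxcl9 between -0.525 and 0.32. The cause was not tested. Depth limits Cxcl2, Cxcl5 and Ccl7 in sham livers, where single libraries held as few as 0 or 1 fragments.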
